A study of Drosophila melanogaster with 10 samples.

Results

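The UDP-glycosyltransferases of Drosophila melanogaster were taken as the rows of the count table whose gene symbol begins with Ugt and a digit, which gave 35 genes of the 17559 in the table. RNA was sequenced from pools of 5 whole adult males at an age of 5 to 10 days. Every sample had the w[1118] X chromosome and the c564 insertion, a GAL4 driver active in fat body as well as several other tissues. The 5 control samples carried c564 over a wild-type chromosome without a hairpin. The 5 knockdown samples carried in addition UAS-Mef2-IR[GD15549], an RNA interference hairpin against the MADS-box transcription factor Mef2, and the controls carried no insertion in its place. The groups therefore differ in the insertion and any background that came with it as well as in Mef2. These cannot be told apart in the changes between knockdown and control given below. No label says whether the pools of a group came from separate crosses, so p-values measure the spread between these pools. The sequencing addressed the effect of reducing Mef2 in the fat body, and counts from a whole fly also contain the tissues that the driver does not reach.

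UDP-glycosyltransferases are enzymes of the endoplasmic reticulum membrane that move a sugar from a UDP-sugar onto small lipophilic molecules, which makes them more soluble and easier to excrete. In insects the usual donor is UDP-glucose, and the acceptors include plant toxins, insecticides, pigments, hormones and odorants. Along with the glutathione S-transferases they are conjugating enzymes that act on products of the cytochrome P450 monooxygenases, and in flies the fat body, the gut, the Malpighian tubules and the antennae are known sites of their expression. In the family's nomenclature the number gives the sequence family and the letter the subfamily.

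The libraries held 43823883 to 102851945 counts, with knockdown replicate 2 the deepest. Mef2 itself was 93.6 ± 4.60 CPM (counts scaled to library size by the trimmed mean of M values, TMM; mean ± SD, n = 5) in control and 79.3 ± 5.06 in knockdown (log2 fold change -0.24, SE 0.056, adjusted p = 0.0149). The call of Mef2 was lost in replicates 4 and 5 alone. In the interaction fit over all libraries its log2 fold change was -0.094 within replicates 4 and 5, against -0.34 within replicates 1 to 3 (interaction adjusted p = 0.0425). The eye colour gene w, which marks many fly transgenes, rose by a log2 of 2.87 (adjusted p = 8.61e-07). Markers of male and whole-body tissues were present, except the accessory gland gene Acp95EF with no count in any library, whereas the egg-shell genes Vm26Aa, Cp36, Vm32E and Cp16 had group means under 0.1 CPM. Libraries numbered 1 to 3 and libraries numbered 4 and 5 stood apart as 2 sets in both groups. After removal of the group means, samples of the same set but other number correlated at 0.090 to 0.34 across genes and samples of different sets at -0.31 to -0.10. No label says what separates these sets. The split was known from earlier results of these same data, and p-values of the interaction do not allow for that choice. Where a change is given below for each set, the value of replicates 1 to 3 comes first.

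The 35 genes lay on the autosomes, with 11 on chromosome arm 2L, 5 on 2R, 2 on 3L and 17 on 3R (BDGP6). All were annotated as protein-coding, with a coding length of 502 to 636 codons in the canonical transcript, and 18 of them had 2 exons. When members less than 30 kb apart were joined, 23 genes fell into 6 runs and 12 stood alone. The longest run, on 3R from 11126597 to 11177910, held 10 members in 51.3 kb. Exons of only 4 members overlapped exons of another annotated gene, in each case on the opposite strand. These were Ugt36A1 with CG15418, Ugt307A1 with Pvf2, Ugt36E1 with CG17597 and Ugt49B1 with CG44245, and since the strand setting of the counting is not given in the sources used here, reads in the shared stretches cannot be assigned to one gene with certainty. Ugt50B3 spans 2R from 5496674 to 5549543 and holds the flight muscle gene TpnC4 on the opposite strand, without a shared exon. The sources do not give how reads that fit several copies were treated, so the split of counts between closely similar members is uncertain as well.

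Among tested members, levels per length spanned 509.7-fold. In RPKM, which is CPM divided by the kilobases of annotated exon, the control level ranged from 0.0669 for Ugt35D1 to 75.1 for Ugt35B1. At least 10 RPKM was reached by 14 members, 11 lay between 1 and 10 RPKM and 10 were under 1 RPKM, and 15 exceeded the median of all tested genes with a length, 9.35 RPKM. The 5 most abundant members in control made up 50.6% of the summed RPKM of the family. They were Ugt35B1 (75.1 ± 4.41 RPKM), which in Drosophila is known for its expression in the antenna, Ugt50B3 (61.7 ± 2.56), Ugt35C1 (46.6 ± 8.88), known under its older symbol Ugt86Dd for a part in larval resistance to nicotine, Ugt302C1 (39.0 ± 6.84) and Ugt49B1 (36.3 ± 4.42). The control means of Ugt35B1, Ugt50B3 and Ugt35C1 were further apart from each other than their SDs. Ugt302C1 differed from Ugt35C1 by less than the SD of Ugt35C1, and from Ugt49B1 by less than the SD of either. The smallest level was supported by few reads: Ugt35D1 had 2 to 21 counts per library, against a floor of 3 counts, and did not pass the filter on low counts. The other 34 members were tested.

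**Figure D1:**
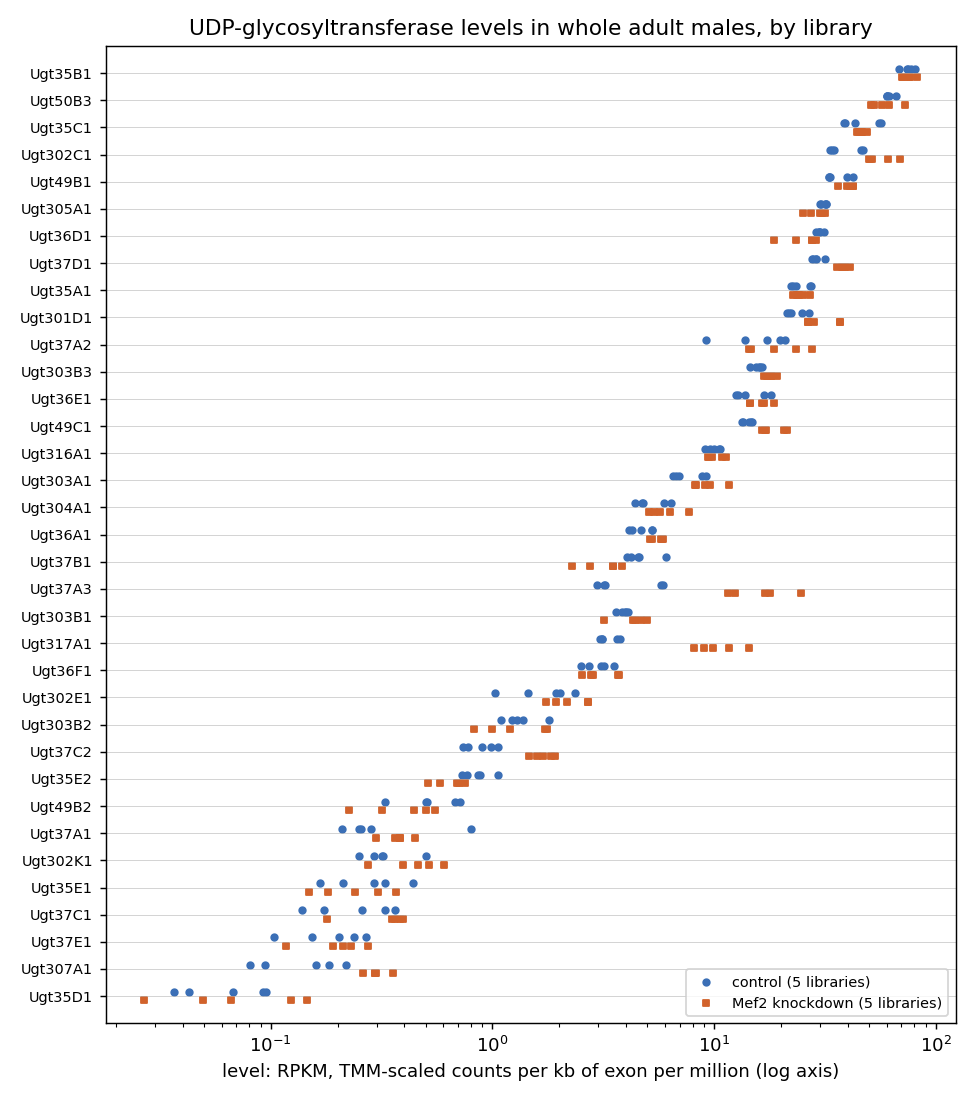
Level of each of the 35 UDP-glycosyltransferase genes in RPKM on a log axis, with 1 point per library (circles, 5 control libraries; squares, 5 knockdown libraries), ordered by control mean. Ugt35B1 is highest at 75.1 RPKM in control and Ugt35D1 lowest at 0.0669, and the knockdown points of Ugt37A3 and Ugt317A1 lie clear to the right of their control points.

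In Mef2 knockdown 9 members were higher and 1 was lower, and 24 were not called. Higher were Ugt37A3, Ugt317A1, Ugt307A1, Ugt37C2, Ugt302C1, Ugt301D1, Ugt37D1, Ugt49C1 and Ugt303B3, and lower was Ugt37B1. The called members were 29.4% of the 34 tested, and 16.6% of all 13928 tested genes were called. In the upward direction alone the shares were 26.5% of members and 11.1% of all genes, and in the downward direction 2.94% and 5.51%. The median log2 fold change was 0.15 over the tested members and -0.0039 over all tested genes, and 24 members (70.6%) were above 0, beside 49.3% of all tested genes. Without any overlap between the 5 control and 5 knockdown libraries, 8 members were higher and 2 were lower, Ugt37B1 and the uncalled Ugt36D1, where 11.8% and 6.86% of all tested genes did so, 18.6% in either direction. With the replicate number as a block, 10 members were higher and 1 lower, beside 13.1% and 7.32% of all tested genes (20.4% in either direction). In whole flies, more or fewer cells of a type and more or less RNA per cell cannot be told apart. A call means an adjusted p under 0.05 in the quasi-likelihood test of edgeR, adjusted over all tested genes by the Benjamini-Hochberg method, and adjusted p-values are from that test unless another is named.

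**Figure D2:**
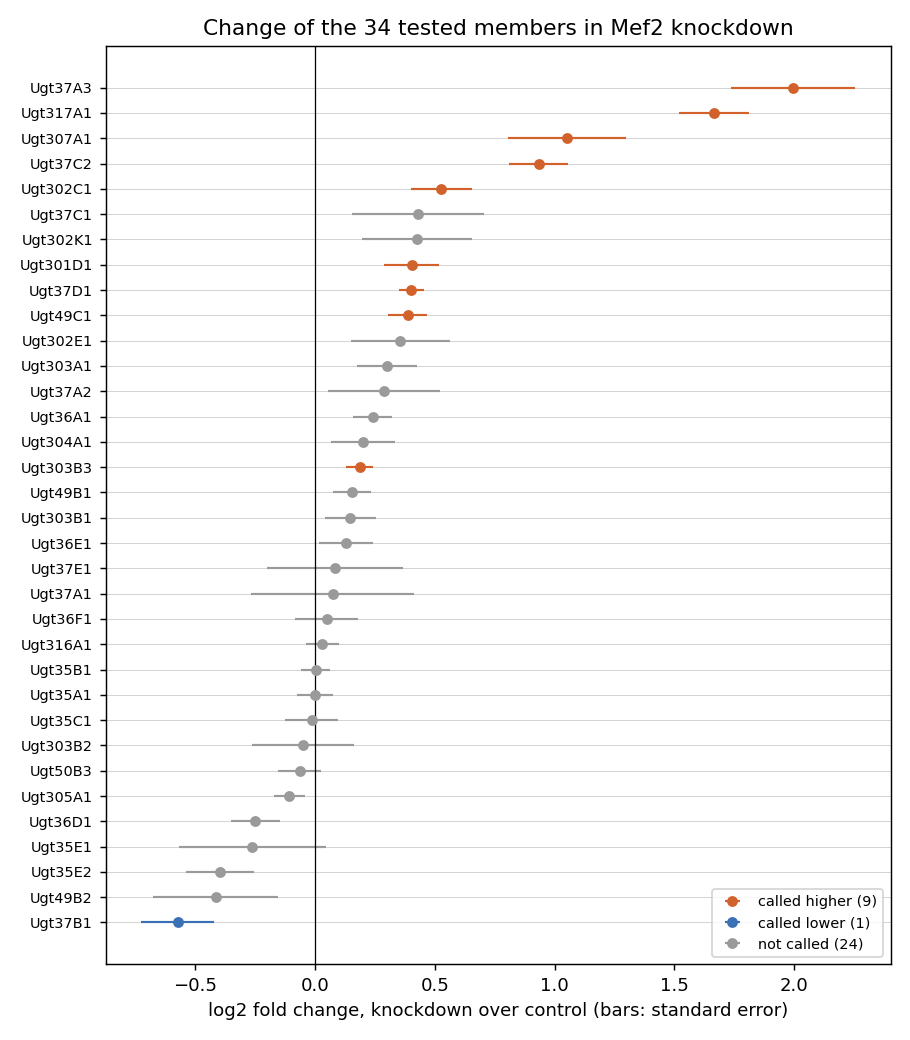
Log2 fold change of knockdown over control for the 34 tested members, with standard errors as bars, coloured by call. Values run from -0.57 for Ugt37B1 to 1.99 for Ugt37A3, and the 4 largest rises, Ugt37A3, Ugt317A1, Ugt307A1 and Ugt37C2, are separated from the rest.

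Ugt37A3 (chromosome arm 3R, 12741958 to 12743680) had the largest change. In control libraries 1 to 5 it was at 5.34, 5.31, 4.94, 9.79 and 9.58 CPM, and in knockdown libraries 1 to 5 at 41.3, 19.2, 28.3, 29.7 and 20.7 CPM. Every knockdown library was above every control library, control libraries 4 and 5 were the highest of the controls, and knockdown library 1 stood above the other 4. The means were 6.99 ± 2.46 and 27.8 ± 8.79 CPM (log2 fold change 1.99, SE 0.26, adjusted p = 0.000514), and the gene moved from rank 20 to rank 14 of the 35 members by RPKM. Its neighbour Ugt37A2, in the same family and transcribed towards it, held 15.7, 33.8, 23.5, 35.8 and 29.6 CPM in control and 47.2, 40.2, 31.7, 25.0 and 24.6 CPM in knockdown. These ranges overlap, and Ugt37A2 was not called (log2 fold change 0.29, SE 0.23, adjusted p = 0.394).

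Ugt317A1 (chromosome arm 2R, 22641786 to 22643917), formerly Ugt58Fa, had the smallest p of the family. It was at 5.81, 5.81, 5.72, 6.81 and 7.0 CPM in the control libraries and at 15.1, 16.8, 18.4, 26.9 and 21.7 CPM in the knockdown libraries. The groups were far apart with no overlap, and within knockdown the libraries numbered 4 and 5 were the highest. The means were 6.23 ± 0.620 and 19.8 ± 4.65 CPM (log2 fold change 1.67, SE 0.15, adjusted p = 2.86e-05). By RPKM it went from rank 22 to rank 16 in the family.

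Of the 8 members of the Ugt37 family, 3 were higher and 1 was lower. The run of 3 on 2L from 16794211 to 16801584 held 2 of the higher ones. Ugt37C2, a weakly expressed gene, was at 1.40, 1.91, 1.61, 1.78 and 1.32 CPM in control and 2.63, 3.32, 3.04, 2.86 and 3.46 CPM in knockdown, with no overlap (log2 fold change 0.93, SE 0.12, adjusted p = 0.000566). Ugt37D1, at the other end of the run and more abundant per length (29.0 against 0.891 RPKM in control), was at 56.4, 62.0, 56.6, 54.4 and 54.1 CPM in control and 76.5, 74.8, 73.5, 80.0 and 70.1 CPM in knockdown, again without overlap and with a smaller change (log2 fold change 0.40, SE 0.053, adjusted p = 0.000555). Between them lies Ugt37E1, with 9 to 38 counts per library, for which the log2 fold change was 0.084 (SE 0.28, adjusted p = 0.85).

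Ugt37B1 (chromosome arm 2L, 6225048 to 6226842) was the 1 member called lower. Its level was 7.35, 7.90, 7.05, 7.99 and 10.6 CPM in control libraries, against 6.10, 4.78, 6.09, 6.65 and 3.98 CPM under knockdown. Every knockdown library was below every control library, and control library 5 was well above the other controls. Its means were 8.18 ± 1.41 and 5.52 ± 1.10 CPM (log2 fold change -0.57, SE 0.15, adjusted p = 0.0258). The call was lost without control replicate 5 (log2 -0.46, adjusted p = 0.0562) or without knockdown replicate 2 (log2 -0.52, adjusted p = 0.0514), and the adjusted p was 0.0171 to 0.0562 over the 10 omissions.

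Among the 14 members at 10 RPKM or more, 5 rose, each to less than 1.5 times its control mean. Ugt37D1 was one of them, and the other 4 were Ugt302C1, Ugt49C1, Ugt301D1 and Ugt303B3. Ugt302C1 (chromosome arm 3R, 11157098 to 11159744) was at 66.3, 68.2, 69.1, 93.6 and 91.7 CPM in control and 101, 99.2, 102, 137 and 121 CPM in knockdown. The groups did not overlap, and libraries 4 and 5 were the highest in both (log2 fold change 0.53, SE 0.13, adjusted p = 0.0163). Without control replicate 3 the adjusted p was 0.0528, and with the replicate number as a block it was 0.000276. Ugt49C1 (chromosome arm 2R, 21215435 to 21217779) was at 27.4, 25.4, 25.6, 28.1 and 27.8 CPM in control and 32.1, 32.5, 31.2, 39.2 and 40.5 CPM in knockdown, with no overlap (log2 fold change 0.39, SE 0.081, adjusted p = 0.00899). Its neighbour Ugt49B1, which is more abundant per length, is treated with the sets of replicates below. Ugt301D1 (chromosome arm 2L, 18509560 to 18513512) was at 44.3, 43.3, 42.3, 49.7 and 53.4 CPM in control and 56.4, 52.8, 52.5, 73.2 and 73.4 CPM in knockdown. Its groups overlapped, since control library 5 was above knockdown libraries 2 and 3 (log2 fold change 0.40, SE 0.11, adjusted p = 0.033). This call was lost without control replicate 1, 2, 3 or 4 or knockdown replicate 4 or 5 (adjusted p 0.0514 to 0.0931), and with the block the adjusted p was 0.00251. Ugt303B3 (chromosome arm 3R, 23532945 to 23534767) was at 25.6, 29.1, 28.2, 28.4 and 27.3 CPM in control and 30.6, 31.7, 33.9, 29.5 and 32.0 CPM in knockdown. The groups did not overlap, but the gap between them was small (log2 fold change 0.19, SE 0.055, adjusted p = 0.0403). The call was lost without any 1 library other than knockdown replicate 4 (adjusted p 0.0579 to 0.115), with the block (0.0535), with upper-quartile scaling (0.0911) and with no filter beyond 1 count (0.0644). Ugt303B1 and Ugt303B2, which lie beside it in the same run, had log2 fold changes of 0.15 and -0.050 and were not called.

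Ugt307A1 (chromosome arm 2L, 7067983 to 7069546) rose from a very low level, with 6 to 55 counts per library. It was at 0.122, 0.143, 0.243, 0.276 and 0.330 CPM in control and 0.445, 0.539, 0.453, 0.446 and 0.394 CPM in knockdown, and the groups did not overlap (log2 fold change 1.05, SE 0.25, adjusted p = 0.0149). Pvf2, a PDGF- and VEGF-related growth factor whose exons share 11 bases with those of Ugt307A1 on the opposite strand, was also higher (log2 fold change 0.66, SE 0.12, adjusted p = 0.0035). The part of shared reads in the change of Ugt307A1 was not tested.

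**Figure D3:**
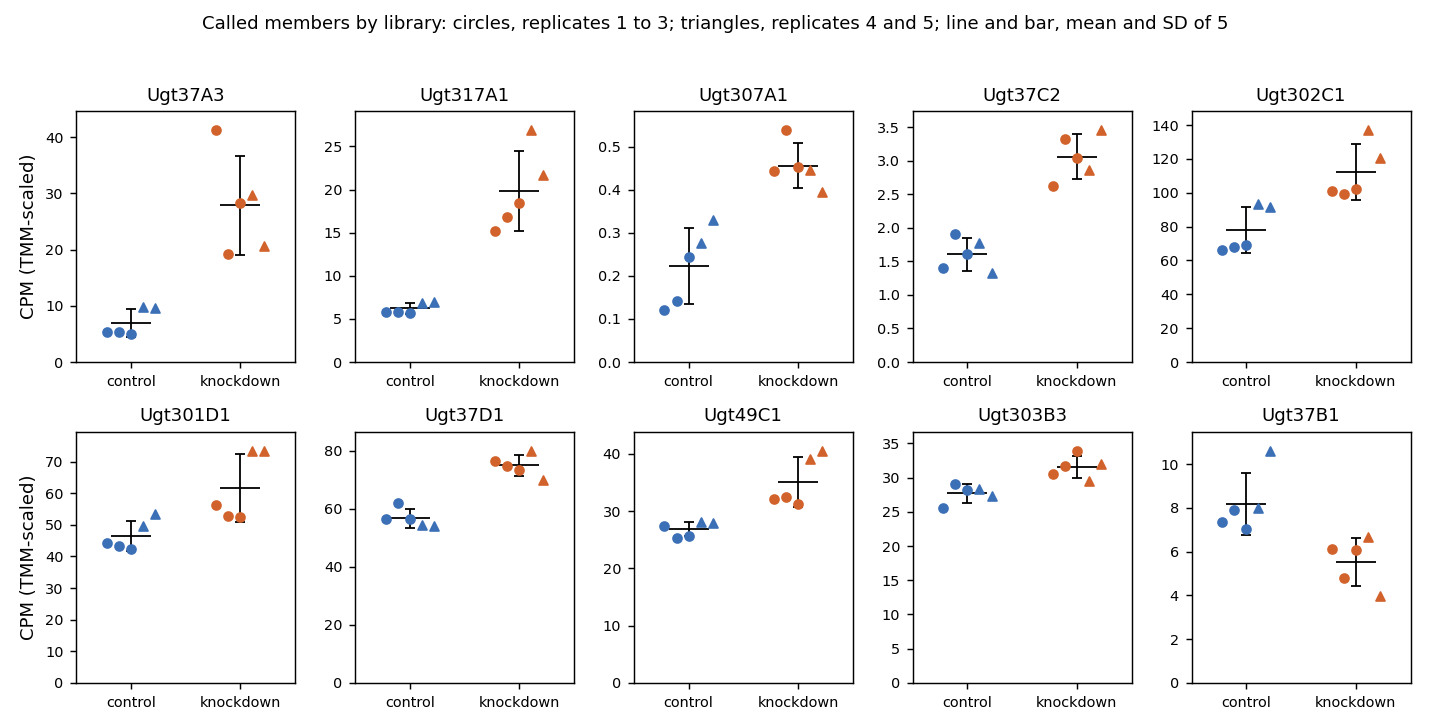
CPM of the 10 called members in each library (circles, replicates 1 to 3; triangles, replicates 4 and 5; horizontal line and bar, mean and SD of 5 libraries), each axis starting at 0. Knockdown points lie above all control points in 8 panels, overlap with them for Ugt301D1 and lie below them for Ugt37B1.

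The 3 most abundant members outside the calls were Ugt35B1, Ugt50B3 and Ugt35C1. Ugt35B1 (chromosome arm 3R, 11168503 to 11170246) was at 124, 125, 115, 135 and 129 CPM in control and 126, 119, 118, 137 and 128 CPM in knockdown (log2 fold change 0.0027, SE 0.059, adjusted p = 0.979). Ugt50B3 was at 204, 200.1, 199, 200.4 and 219 CPM in control and 189, 175, 169, 242 and 204 CPM in knockdown, with a wider spread in knockdown (log2 fold change -0.064, SE 0.089, adjusted p = 0.631). Ugt35C1 (chromosome arm 3R, 11126597 to 11128328) was at 65.2, 72.3, 64.5, 93.2 and 94.5 CPM in control and 77.6, 76.7, 75.6, 73.8 and 82.1 CPM in knockdown, where control libraries 4 and 5 were above every knockdown library and control libraries 1 to 3 below every one (log2 fold change -0.014, SE 0.11, adjusted p = 0.939). Over the 24 uncalled members the log2 fold changes lay between -0.41 and 0.43, and 4 of them had an unadjusted p under 0.05. These were Ugt36A1, Ugt303A1, Ugt35E2 and Ugt36D1. Ugt36A1, formerly Dot, whose promoter is used as a driver in pericardial cells, was at 10.8 ± 1.19 CPM in control and 12.8 ± 0.807 CPM in knockdown (log2 fold change 0.24, SE 0.081, adjusted p = 0.0607), and was called with the block (adjusted p = 0.0442) and by DESeq2 (adjusted p = 0.0438). Ugt303A1 (log2 fold change 0.30, SE 0.12, adjusted p = 0.107) was called with the block (adjusted p = 0.0154), and Ugt35E2 (log2 fold change -0.40, SE 0.14, adjusted p = 0.0728) with upper-quartile scaling (adjusted p = 0.0489). Ugt37A1, with 17 to 75 counts, was called without control replicate 4 (log2 0.60, adjusted p = 0.0455) and had a log2 fold change of 0.075 with it. Ugt36E1, known in Drosophila from olfactory neurons, was at 28.2 ± 4.65 and 30.8 ± 3.28 CPM (log2 fold change 0.13, SE 0.11, adjusted p = 0.419).

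By sequence family, the called members were spread over several numbers. The 5 tested Ugt35 genes made up 28.8% of the family's summed control RPKM together with the untested Ugt35D1. None of the 5 was called by DESeq2, limma voom or edgeR on group alone over all libraries with TMM scaling. Of the 5, 1, Ugt35E2, had an unadjusted p under 0.05 and was called lower with upper-quartile scaling and with the set as a term. Ugt35C1 was called higher in replicates 1 to 3 alone and lower in replicates 4 and 5 alone. The Ugt35 log2 fold changes ran from -0.40 to 0.0027. In the Ugt36 family, limma voom and edgeR on group alone over all libraries called none of 4. DESeq2 called 1, Ugt36A1, while 2 had an unadjusted p under 0.05. With the block Ugt36A1 was called higher, and with the set as a term Ugt36A1 was higher and Ugt36D1 lower. In replicates 1 to 3 alone Ugt36A1 and Ugt36E1 were called higher, and in replicates 4 and 5 alone Ugt36D1 was called lower. The Ugt302 genes had log2 fold changes of 0.43 for Ugt302K1, 0.36 for Ugt302E1 and 0.53 for Ugt302C1, of which the last was called. In the Ugt49 family Ugt49C1 was called, and Ugt49B1 (0.16) and Ugt49B2 (-0.41) were not.

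The long run on 3R held members at very different levels and with different changes. Its 10 genes accounted for 39.4% of the family's summed control RPKM, between 0.287 RPKM for Ugt35E1 and 75.1 RPKM for Ugt35B1. Only Ugt302C1 was called among the 10, and their median log2 fold change was 0.10. Of 3 other genes in the interval, CG4757 was higher, from 29.4 ± 17.0 to 189 ± 120.3 CPM (log2 fold change 2.69, SE 0.48, adjusted p = 0.00375), with Ugt302C1 on one side of it and Ugt35E1 on the other. The mitochondrial aconitase gene mAcon2 (-0.22, adjusted p = 0.0774) and CheA86a (-0.22, adjusted p = 0.447) were not called.

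**Figure D4:**
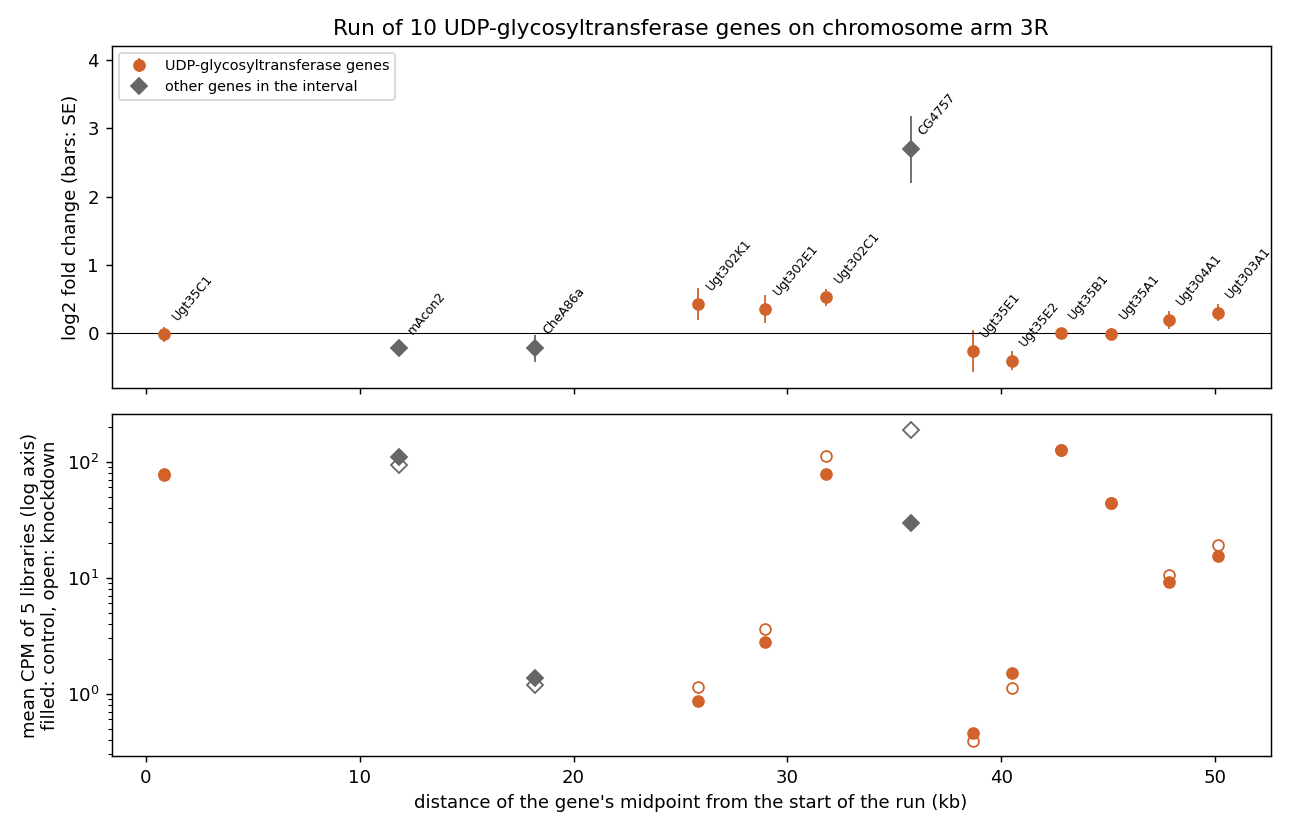
Log2 fold change with standard error (upper axes) and mean CPM of 5 libraries on a log axis (lower axes; filled, control; open, knockdown, hidden where the means coincide) along the run of 10 members on 3R, by distance from the start of the run. The members lie between -0.40 for Ugt35E2 and 0.53 for Ugt302C1, and CG4757 in their midst is at 2.69.

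The change between knockdown and control differed between the 2 sets of replicates in 4 members, or 11.8% of those tested, beside 18.8% of all tested genes. None of the 4 was called over all libraries, and each had a lower change in replicates 4 and 5, an order that 10.0% of all genes had with a call. Ugt35C1, whose values are given above, had log2 fold changes of 0.19 in the first set and -0.27 in the other (interaction adjusted p = 0.00922). Ugt49B1 (chromosome arm 2R, 21212880 to 21214972) was at 58.4, 58.1, 57.7, 70.0 and 73.9 CPM in control and 74.1, 74.6, 69.9, 63.7 and 71.9 CPM in knockdown. Its changes were 0.33 and -0.085 (interaction adjusted p = 0.0102). Ugt305A1 (chromosome arm 3L, 4059770 to 4061923) was at 59.5, 59.9, 62.8, 63.5 and 63.5 CPM in control and 60.9, 59.6, 62.4, 49.7 and 54.2 CPM in knockdown, with changes of 0.0060 and -0.29 (interaction adjusted p = 0.0206). Ugt36D1 (chromosome arm 2L, 18823548 to 18826716) was at 68.1, 65.7, 71.5, 67.9 and 67.6 CPM in control and 62.9, 65.3, 62.9, 42.5 and 53.1 CPM in knockdown, and its changes were -0.10 and -0.50 (interaction adjusted p = 0.0329). In Ugt35C1, Ugt49B1 and, by a small margin, Ugt305A1, control libraries 4 and 5 were above control libraries 1 to 3. In Ugt305A1 and Ugt36D1, knockdown libraries 4 and 5 were below knockdown libraries 1 to 3.

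All 10 called members had the same sign in both sets. Ugt37A3 had log2 fold changes of 2.50 (SE 0.25) in the first set and 1.37 (SE 0.29) in the other, a difference that did not pass (interaction adjusted p = 0.0639). Ugt307A1 had 1.51 and 0.46 (interaction adjusted p = 0.0978) and was not called in replicates 4 and 5 alone (adjusted p = 0.33). For Ugt317A1 the values were 1.54 and 1.81, and for Ugt37C2 0.88 and 1.03. Replicates 1 to 3 alone gave 17 members higher and 2 lower, where 15.4% and 9.92% of all genes were called (25.3% in either direction). Replicates 4 and 5 alone gave 7 higher and 5 lower, where the shares of all genes were 13.2% and 14.4% (27.6% in either direction). Median member changes were 0.27 within replicates 1 to 3 and 0.076 within replicates 4 and 5, while the medians of all tested genes were -0.0088 and 0.011. In the controls by themselves, libraries 4 and 5 were both above libraries 1 to 3 in 18 of 34 tested members and both below them in 2, where 24.5% and 22.8% of all tested genes had those orders.

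**Figure D5:**
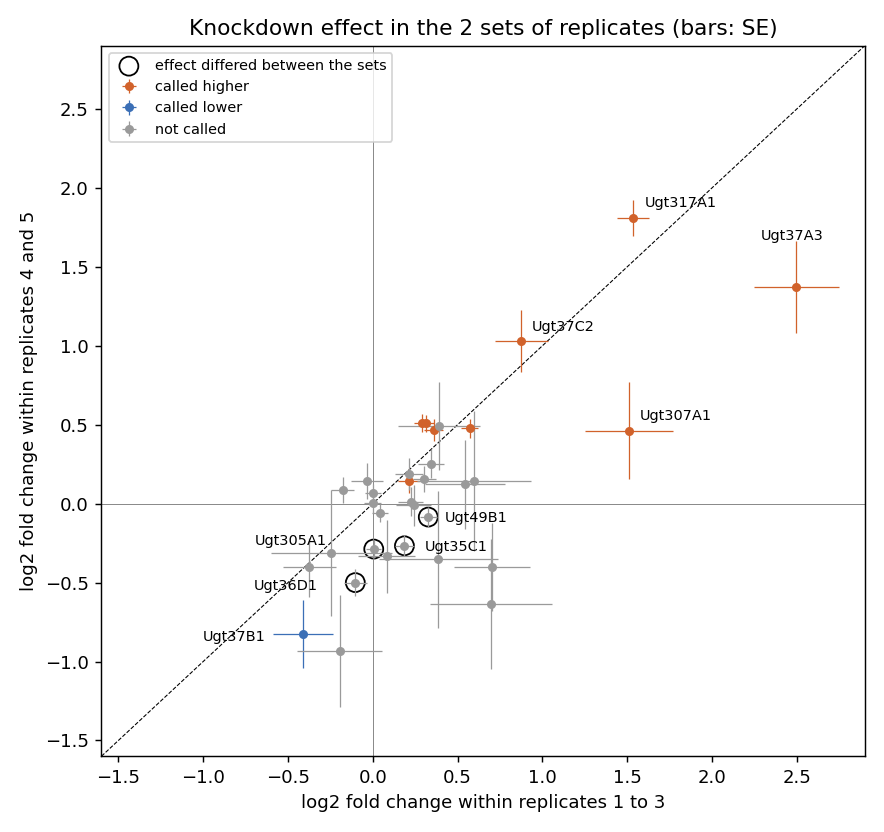
Log2 fold change within replicates 1 to 3 (horizontal) and within replicates 4 and 5 (vertical) for the 34 tested members, with standard errors as bars and the line of equal change dashed. The 4 circled members, Ugt35C1, Ugt49B1, Ugt305A1 and Ugt36D1, differed between the sets and lie below the line, and the called members lie in the upper right or lower left part.

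The summed level of all 35 members was 981, 1015, 985, 1127 and 1140.2 CPM in control and 1163, 1109, 1108, 1235 and 1199.7 CPM in knockdown. These ranges overlap between the groups, and within each group libraries 4 and 5 were the highest. Its mean was 1049.5 ± 77.9 CPM for control flies and 1163 ± 55.8 CPM for knockdown flies, a ratio of 1.11. Members not called higher added up to 799 ± 57.6 and 796 ± 23.8 CPM. They were set apart by the calls in these same libraries, so these sums are no test of whether the other members changed. The share of the 5 members most abundant in control went from 50.6% to 48.2% of the summed RPKM.

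Genes that make the donor sugars were examined beside all tested genes, of which 11.1% were higher and 5.51% lower. Of 13 tested genes of UDP-sugar supply, 3 (23.1%) were higher and none lower, with a median log2 fold change of 0.12. For the lower direction DESeq2 called 1, limma voom called none and 1 had an unadjusted p under 0.05. The galactokinase gene Galk rose by a log2 of 0.49 (adjusted p = 0.0131), but its groups overlapped, and the call was lost in replicates 4 and 5 alone. By set its change was 0.75 and 0.092 (interaction adjusted p = 0.00471). UGP, which forms UDP-glucose, was at 545 ± 35.6 and 575 ± 131 CPM (adjusted p = 0.717), with log2 fold changes of opposite sign by set, 0.30 and -0.32 (interaction adjusted p = 0.0258). The gene for the enzyme that oxidises UDP-glucose to UDP-glucuronic acid, sgl, was at 75.6 ± 2.66 and 75.6 ± 12.3 CPM (adjusted p = 0.998), and its sets also had opposite signs, -0.15 and 0.20 (interaction adjusted p = 0.00791). UGP was called higher and sgl lower in replicates 1 to 3 alone. Gfat2 (log2 0.33, adjusted p = 0.0497), which acts in the hexosamine pathway to UDP-N-acetylglucosamine, was also higher but lost its call without any 1 control library or without knockdown replicate 4 or 5 (adjusted p at most 0.112), and with limma voom, upper-quartile scaling or no filter beyond 1 count. Its change by set was 0.13 and 0.59 (interaction adjusted p = 0.00567). Of 4 tested genes listed for transport into the endoplasmic reticulum and Golgi, 1 (25%), meigo, was higher (log2 0.56, adjusted p = 0.0339). The call of meigo was lost without any 1 control library or knockdown replicate 5 (adjusted p at most 0.0872). Its change was 0.27 and 0.89 by set (interaction adjusted p = 0.0121). The UDP-sugar transporter frc is listed at 0 in all 10 libraries.

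Regulators, exporters and hydrolases were examined as lists as well, and of all tested genes 11.1% were higher and 5.51% lower. Higher were 22.2% of the tested regulators and 50% of the hydrolases, and lower 14.3% of the exporters. The lists are short, so 1 gene moves these shares by much. Of 9 genes of the xenobiotic response, 2 were higher, namely cnc, the fly homolog of the stress factor Nrf2 (log2 0.22, adjusted p = 0.0293), and usp, the partner of the ecdysone receptor (log2 0.33, adjusted p = 0.017). Both calls were lost without control replicate 3, and that of cnc also without control replicate 1, 2 or 4 (adjusted p at most 0.0851 for cnc and 0.0553 for usp). For usp the change by set was 0.17 and 0.56 (interaction adjusted p = 0.0104), and the call of cnc was lost in replicates 4 and 5 alone. Keap1, the inhibitor of cnc, was at 25.0 ± 3.06 and 25.3 ± 4.62 CPM (adjusted p = 0.937). Among 7 efflux transporters the ABC transporter gene Mdr65 was lower (log2 -0.31, adjusted p = 0.0406), a call lost without control replicate 1, 2, 3 or 4 or knockdown replicate 4 or 5 (adjusted p at most 0.0895). Of 4 tested glycoside hydrolases 2 were higher, both glucocerebrosidase genes. Gba1b rose by a log2 of 0.98 (adjusted p = 6.93e-06) and Gba1a by 0.53 (adjusted p = 0.0461), and the call of Gba1a was lost with the block (adjusted p = 0.053) and without any 1 library other than knockdown replicate 4 or 5. By set the changes were 0.79 and 0.032 for Gba1a (interaction adjusted p = 0.0104) and 1.10 and 0.82 for Gba1b (interaction adjusted p = 0.0214).

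The other large detoxification families, like all tested genes, had more members higher than lower. Of 78 tested cytochrome P450 genes 30 were higher and 9 lower (38.5% and 11.5%, beside 11.1% and 5.51% of all tested genes), with a median log2 fold change of 0.088. With 1 library left out, 24 to 31 P450 genes were higher, fewest without control replicate 3, and 6 to 10 were lower, fewest without control replicate 4. In replicates 4 and 5 alone 21 were higher. Of 35 glutathione S-transferase genes 17 were higher and 2 lower (48.6% and 5.71%), with a median of 0.43, but 11 were higher when control replicate 1, 2 or 3 was left out, and 1 was lower when any 1 library other than knockdown replicate 1, 4 or 5 was left out. The smallest p among the P450 genes belonged to Cyp4p2 (log2 6.35, adjusted p = 2.25e-08) and Cyp6d2 (log2 2.70, adjusted p = 4.17e-07). Among the glutathione S-transferases it belonged to GstE5 (log2 0.70, adjusted p = 0.00012) and GstE1 (log2 2.48, adjusted p = 0.000314), with changes by set of 0.85 and 0.49 for GstE5 (interaction adjusted p = 0.0205) and 1.95 and 2.95 for GstE1 (interaction adjusted p = 0.00713). The largest change of a UDP-glycosyltransferase, 1.99 for Ugt37A3, was below those of Cyp4p2, Cyp6d2 and GstE1. Whether these families differ from each other in their change was not tested.

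Markers of several tissues moved with the knockdown, and their part in the changes above was not tested. For the counts below, 11.1% of all tested genes were higher and 5.51% lower. Oenocyte markers were lower in 4 of 5, with a summed level of 30842 to 41201 CPM in control and 20709.8 to 25079 CPM in knockdown, and hemocyte markers were higher in 4 of 6, with 425 to 515 CPM in control and 570.4 to 742 CPM in knockdown. The lower oenocyte genes were Desat1 (log2 -0.73), FASN2 (-0.65), CG18609 (-0.59) and Cyp4g1 (-0.68), the last of which is also a P450 gene counted above. Most of the oenocyte sum came from Cyp4g1, at 30242 ± 4312 CPM in control and 18933 ± 1785 CPM in knockdown. The groups overlapped for CG18609. Its call was lost without control replicate 3, 4 or 5 or knockdown replicate 1, 2 or 3 (adjusted p at most 0.0970). The higher genes of the hemocyte list were the collagen gene Col4a1 (0.77) and NimC1 (0.48), eater (0.43) and Hml (0.29). Col4a1 was the most abundant of the list and leads its sum, at 219 ± 42.4 CPM in control and 374 ± 62.7 CPM in knockdown. Without control replicate 1, 2 or 3 the number of hemocyte markers higher was 2, as in replicates 4 and 5 alone, and NimC1 was at 0.70 and 0.093 by set (interaction adjusted p = 0.0327). Of 3 tested Malpighian tubule markers 1, the urate oxidase gene Uro, was higher. The list summed to 179 to 199 CPM in control and 206 to 260.2 CPM in knockdown. Of 5 tested fat body markers 1, Fbp2, was higher, and their sum was 2203 to 2838 CPM in control and 2163 to 2832 CPM in knockdown, nearly all of it from the lipoprotein gene apolpp. Fbp2 was not called by limma voom or in replicates 4 and 5 alone. Fat body markers differed between the sets: 4 of 5 were higher in replicates 1 to 3 alone, and 2 were lower in replicates 4 and 5 alone. The replicate block gave 2 higher and 1 lower. By set, log2 fold changes were 3.50 and 0.48 for Fbp2 (interaction adjusted p = 0.00561), 0.51 and -1.69 for the storage protein gene Lsp2 (interaction adjusted p = 0.0118) and 0.23 and -0.24 for apolpp (interaction adjusted p = 0.0237). Fbp1, which did not pass the filter, was at 3.33, 1.31, 0.926, 0.0893 and 0.0631 CPM in the knockdown libraries and at most 0.132 CPM in control. Of 6 midgut markers 1, the protease gene Jon65Aiv, was lower, a number that was 3 without knockdown replicate 4 and in replicates 1 to 3 alone. The midgut list summed to 4967 to 6574 CPM in control and 4733 to 6069 CPM in knockdown. The accessory gland list summed to 2195 to 2386 CPM in control and 1762 to 2220.5 CPM in knockdown. Of its 5 tested markers 1, Acp36DE, was lower. The number lower was 0 without any 1 of the control libraries or of knockdown replicates 1 to 3 and in replicates 4 and 5 alone. It was 2 without knockdown replicate 5, 3 with the block and 4 in replicates 1 to 3 alone. The list of female genes had 1 lower of 2 tested, the yolk protein gene Yp3, and summed to 10.1 to 12.1 CPM in control and 7.74 to 9.14 CPM in knockdown. No marker of antenna, eye, muscle, testis or neuron was called by edgeR or limma voom when group was the 1 term and all libraries were used, at unadjusted p under 0.05 there were 1, 1, 0, 2 and 0 lower and none higher, and DESeq2 called 1 antenna and 1 eye marker lower. With the block 1 antenna marker, Obp19d, was lower (adjusted p = 0.0418), and upper-quartile scaling called 1 eye marker, Arr2, lower. In replicates 1 to 3 alone 5 of 6 eye and 3 of 6 neuron markers were lower and 1 muscle marker was higher, and in replicates 4 and 5 alone 2 testis markers and 1 muscle marker were lower. Eye, testis and neuron each had 1 lower when a single knockdown library was left out, replicate 4, 1 and 5 in that order. Their sums were 228 to 303 CPM in control and 176 to 250.0 CPM in knockdown for antenna, 4959.7 to 5246 CPM in control and 4438 to 5610.2 CPM in knockdown for eye, 3340.0 to 5549 CPM in control and 2998 to 5964 CPM in knockdown for muscle, 638 to 708 CPM in control and 487 to 652 CPM in knockdown for testis and 748 to 861 CPM in control and 694 to 816 CPM in knockdown for neuron.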

How the data were processed

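Per the labels' protocols, libraries were made from polyadenylated RNA with a stranded mRNA kit and sequenced on an Illumina NextSeq 500. The submitters' processing notes name build BDGP6 and the programs STAR 2.4.0j, bcl2fastq, limma and featureCounts. Values are raw gene counts as the authors deposited them, in a single table. Which annotation release and strand setting were used, and how multiply mapping reads were treated, is not given in those sources. Symbols and coordinates came from Ensembl release 115 of BDGP6, and 17253 of 17559 identifiers had both.

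Counts were analysed with edgeR 4.0.16 in R 4.3.3, with TMM scaling, filterByExpr at a minimum count of 10 and a quasi-likelihood fit on group over 10 libraries and 13928 genes. SE was taken as |log2 fold change| over the root of the F statistic. RPKM is TMM-scaled CPM per kilobase of merged exons. A count of 3, the floor, equals 0.0294 to 0.0670 CPM, for counting error only. DESeq2 1.42.0, limma 3.58.1 voom, upper-quartile scaling, no filter, each library left out, a replicate block and the set of replicates were alternatives. The fits were also run on simulated counts, drawn independently for each library. Those counts lacked the correlation within sets of replicates, so they cannot show how the fits behave with it. Within groups, chi-square over its degrees of freedom was 7.09 or more, so all libraries differed by more than sampling noise. Same-numbered samples of the 2 groups correlated at 0.16 to 0.28 in their deviations from the group means, above 0.1 in all 5 pairs, so the number served as a block. Pairs of other number in the same set correlated at 0.090 to 0.34, a range that includes that of the same-numbered pairs. These correlations thus do not separate pairing by number from the sets of replicates, and no label ties a number to a day or batch. Lists, the split into 2 sets of replicates and the rule for full values (called members and the 3 most abundant others) were chosen with earlier results of these data known. Lists comprised 7 of pathway genes and 12 of tissue markers. Single values of 1 gene in them are not reported here.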

Additional observations from a re-analysis of the deposited data

Results flagged for a closer look

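In 4 members the change in replicates 4 and 5 differed from that in replicates 1 to 3 by edgeR's interaction test. The difference of log2 fold changes, replicates 4 and 5 minus replicates 1 to 3, was -0.45 for Ugt35C1 (adjusted p = 0.00922), -0.41 for Ugt49B1 (adjusted p = 0.0102), -0.40 for Ugt36D1 (adjusted p = 0.0329) and -0.29 for Ugt305A1 (adjusted p = 0.0206). What the sets share is not recorded in the labels, and the source of the difference was not tested. The split came from earlier results of these same data, which the adjusted p-values do not allow for.

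Single libraries stood far from the other 4 of their group in 5 of 70 groups of 5 libraries by Dixon's ratio, which flags about 1 in 20 groups by chance. Control library 5 was the highest control for Ugt37B1 at 10.6 CPM and for Ugt50B3 at 219 CPM. Control library 4 was the highest control for Ugt37A1 at 1.32 CPM and for Ugt302K1 at 1.28 CPM. Knockdown library 4 was the lowest knockdown library for Ugt37C1 at 0.313 CPM, from 14 counts.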

How the results depend on the processing

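The number of members higher, 9, was 10 with DESeq2, 9 with limma voom, 8 with upper-quartile scaling, 10 with the replicate block, 12 with the set as a term, 17 in replicates 1 to 3 alone and 7 in replicates 4 and 5 alone, and 6 to 8 with 1 library left out. The number lower, 1, was 2 with upper-quartile scaling and in replicates 1 to 3 alone, 3 with the set as a term, 5 in replicates 4 and 5 alone, and 0 to 1 with 1 library left out (0 without control replicate 5 or knockdown replicate 2). The replicate block ended the call of Ugt303B3, added Ugt36A1 and Ugt303A1 and changed no other call in the family. Ugt317A1, Ugt37A3, Ugt37D1, Ugt37C2 and Ugt49C1 were called under all 18 alternatives. The log2 difference of the summed CPM, 0.15, lay between 0.10 and 0.21, and upper-quartile scaling moved the median of all genes to -0.044. No called member changed sign. Among uncalled members the sign turned in replicates 4 and 5 alone for Ugt37E1 (-0.37), Ugt36E1 (-0.013), Ugt37A1 (-0.66), Ugt50B3 (0.059), Ugt49B1 (-0.11), Ugt35B1 (-0.019), Ugt303B1 (-0.037) and Ugt37A2 (-0.42, adjusted p = 0.0316). It turned in replicates 1 to 3 alone for Ugt36F1 (-0.034), Ugt305A1 (0.0067), Ugt35A1 (0.045), Ugt303B2 (0.089) and Ugt35C1 (0.19, adjusted p = 0.0169). Upper-quartile scaling turned Ugt316A1 (-0.011) and Ugt35B1 (-0.038), and Ugt35B1 was also below 0 with DESeq2 (-0.0021) and with no filter (-0.016). With limma voom, the replicate block and the set as a term, Ugt35C1 was at 0.0057, 0.0053 and 0.0052 and Ugt35A1 at 0.0024, 0.0013 and 0.0020. With 1 library left out, log2 fold changes spanned 0 in Ugt303B2 (-0.18 to 0.063), Ugt316A1 (-0.027 to 0.055), Ugt35A1 (-0.056 to 0.041), Ugt35B1 (-0.049 to 0.030), Ugt35C1 (-0.093 to 0.065), Ugt36F1 (-0.040 to 0.12), Ugt37A1 (-0.075 to 0.60) and Ugt37E1 (-0.10 to 0.23). The cause of these turns was not tested. Depth limits the weakest members, since Ugt35D1, Ugt307A1, Ugt37E1 and Ugt35E1 had fewer than 60 counts in every library.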
